A study of Homo sapiens with 3 samples.

Results

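Motile cilia beat because dynein motors slide the doublet microtubules of their core, the axoneme, past each other. The 64 genes described here belong to 6 families of axoneme genes, and were chosen by symbol alone from a table of 58735 genes: DNAH (dynein heavy chains, the motors), DNAI (intermediate chains), DNAL (light chains), DNAAF (factors that assemble the motors in the cytoplasm before transport), RSPH (radial spoke proteins, which link the central microtubule pair to the motors) and CFAP (other cilia and flagella proteins), each prefix followed by a digit, without the 4 rows whose symbols hold a hyphen. The levels come from RNA-seq of parental H660 (NCI-H660) cells, a human neuroendocrine prostate cancer line, treated for 24 h with DMSO as vehicle, with 2.5 μM JG231 or with 5 μM JG231, an allosteric inhibitor of the chaperone HSP70. There was 1 library per condition, so no standard deviation, test or p-value could be had for any gene, and a difference below is a difference between libraries. Both JG231 libraries were compared with the same DMSO library, so the 2 comparisons are not independent of each other.

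Axoneme genes are best known from multiciliated cells of the airway, ependyma and oviduct and from sperm, where regulators such as MCIDAS, FOXJ1 and the RFX factors switch the axoneme genes on together. Outer and inner dynein arms are assembled in the cytoplasm by the DNAAF proteins with HSP70 and HSP90 chaperones and are then carried into the cilium. Prostate epithelium is not a multiciliated tissue. The sample records name the cells as prostatic adenocarcinoma; all 9 neuroendocrine markers looked at had a mean FPKM (fragments scaled by transcript length and by library size) of at least 1, with a summed level of 528.4, 250.8 and 222.3 FPKM with DMSO, 2.5 μM and 5 μM JG231, and none of 7 prostate luminal markers did, with KLK2 listed at 0 in every library and a summed level between 0.116 and 1.33 FPKM.

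The promoters of 54 of the 64 genes were found in RefSeq (GRCh38.p14), as 63 windows of 300 bases that run from 250 bases before to 50 bases after a transcript start. RFX factors bind the X-box, a pair of inverted arms. The arm GTTGCC, searched on both strands, was in 27 of the 63 windows, or 42.9%, against 12.2% of all 35116 windows, and the 27 windows belong to 25 genes. It lay near 5 of 16 genes expressed in H660 cells (CFAP298, CFAP36, CFAP53, CFAP97 and RSPH9) and near 20 of 38 genes at a low level or listed at 0. The full X-box, GTTNCC and GGNAAC set 2 bases apart, which can contain the arm, was in the windows of CFAP45 and DNAH1 only, or 3.17% against 0.490% of all windows, and the forms with a spacer of 1 or 3 bases were in no member's window. The forkhead motif TGTTTAC was in 3 windows (CFAP126, CFAP43 and DNAH9), or 4.76% against 3.42%. The ATF4 and CHOP element and the cyclic AMP element were in no member's window, against 0.236% and 1.85% of all windows.

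The stretches that hold the full X-box, and those of the expressed members with the largest positive (RSPH9) and the largest negative (CFAP70) change between DMSO and 5 μM JG231, are given in the direction of transcription. Capitals mark the X-box in DNAH1 and CFAP45 and the arm, read on the other strand, in RSPH9. The CFAP70 stretch holds none of the motifs searched. They lie at chr3:52316191-52316250 (plus strand), chr1:159900166-159900225 (minus strand), chr6:43644866-43644925 (plus strand) and chr10:73358865-73358924 (minus strand), in the order shown.
DNAH1: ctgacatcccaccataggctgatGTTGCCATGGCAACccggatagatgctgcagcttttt
CFAP45: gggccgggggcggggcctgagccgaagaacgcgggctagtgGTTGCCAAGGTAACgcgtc
RSPH9: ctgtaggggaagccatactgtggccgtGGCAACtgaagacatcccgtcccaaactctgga
CFAP70: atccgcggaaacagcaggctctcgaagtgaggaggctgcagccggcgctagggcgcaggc

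Most of the axoneme genes were at a low level in H660 cells. A mean of at least 1 FPKM over the 3 libraries was reached by 19 of the 63 protein-coding members, whereas 56.5% of all 19831 protein-coding rows reached it. A further 35 members were low, with a mean above 0 and under 1, and 10 were listed at 0 in every library, against 23.4% of all protein-coding rows. The 10 were CFAP46, CFAP58, CFAP97D2, CFAP99, CFAP100, CFAP126, DNAH8, DNAH9, DNAH12 and RSPH6A. The 64th member, DNAH10OS, is a non-coding RNA from the strand opposite DNAH10 and was among the low rows. Nearest to the limit were RSPH9, DNAAF3 and RSPH1 inside it, with means of 1.06, 1.26 and 1.42 FPKM, and CFAP45, CFAP57 and DNAAF4 outside it, with means of 0.97, 0.96 and 0.73 FPKM.

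The families differed in how many of their members were expressed. Both light chain genes and 3 of 5 assembly factor genes reached the mean of 1, as did 3 of 8 radial spoke genes and 9 of 33 CFAP genes. Of the 14 DNAH rows only DNAH5 and DNAH14 did, and neither of the 2 intermediate chain genes did. These counts hold for the symbol rule only, since WDR78 (also DNAI4), which the rule leaves out, had a mean of 1.10 FPKM. The expressed members had a median level in the DMSO library of 6.47 FPKM for DNAL, 4.19 FPKM for DNAAF, 3.64 FPKM for CFAP, 1.87 FPKM for RSPH and 1.30 FPKM for DNAH. The motor genes also stand apart in size, with a median canonical transcript of 13718 bp for DNAH against 2388 bp for DNAAF and 2823 bp for CFAP. In the DMSO library both expressed light chains were above both expressed heavy chains in level, and the intermediate chains of the outer arm were below 1 FPKM.

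Libraries held 16.1 M (DMSO), 20.4 M (2.5 μM) and 24.1 M (5 μM) fragments, as recovered from the steps between FPKM values, and fragment numbers of a gene are computed with exon lengths of GENCODE release 44. These numbers pile up. Among rows with a single transcript the commonest number from 2 to 50 was 5 in the vehicle library, 4 in that of 2.5 μM and 15 in that of 5 μM, so fragments may not be independent. Changes are log2 ratios of FPKM with 0.1 added, which understates the change of low genes. For members, most are given with a 95% interval, which is exact (Clopper-Pearson) for the ratio of fragments after each library's fragments were divided by its commonest number. This form of the interval was chosen after seeing the data and covers counting error only. The divisor was largest for the 5 μM library, which widens its intervals, so an interval that includes 0 there can follow from the divisor. As a stand-in for replicate error, a spread is given too, the robust SD of the log2 difference between the 2 JG231 libraries over the 500 genes nearest in mean level. It includes any true difference between the doses.

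The expressed members went both ways. With 2.5 μM JG231, 9 of the 19 were more than 0.25 higher and 8 more than 0.25 lower than in DMSO on the log2 scale, against 38.4% and 38.3% of all 13785 rows with a mean of at least 1. With 5 μM, 8 were higher and 6 lower, against 38.6% and 40.2%. A change over 1 was seen in 1 higher and 2 lower members at 2.5 μM (background 12.2% and 15.2%) and in 4 higher and 2 lower members at 5 μM (background 14.2% and 17.4%). The median change of the 19 was 0.19 at 2.5 μM and 0.11 at 5 μM, where that of all such rows was 0.00 and -0.01. Its sign turned with the processing, to -0.09 and -0.27 after rescaling the libraries and to -0.03 at 2.5 μM with the length trend removed. With genes added that the symbol rule leaves out it was -0.26 at 2.5 μM, so the median gives no direction. The change was larger than the gene's own spread in 5 higher and 5 lower members at 2.5 μM and in 6 higher and 3 lower members at 5 μM, while 32.1% and 29.5% of all rows were so at 2.5 μM and 33.3% and 32.0% at 5 μM.

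**Figure D1:**
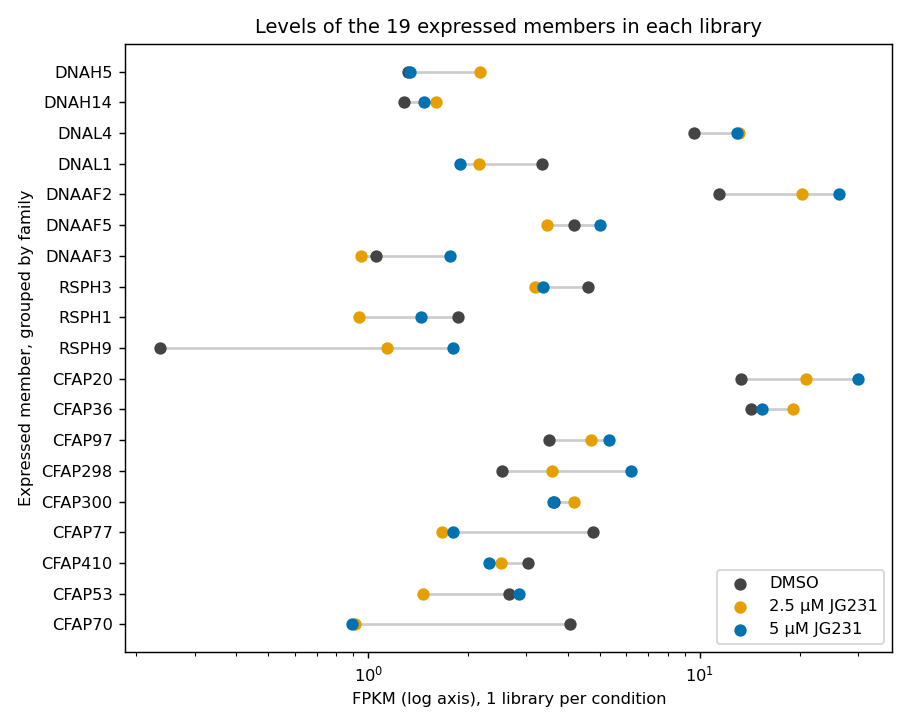
Level in FPKM (log axis) of each expressed member in the DMSO, 2.5 μM and 5 μM libraries, 1 point per library, with members grouped by family. CFAP20, DNAAF2, CFAP36 and DNAL4 lie highest in each library, the RSPH9 point of the DMSO library is at 0.24 FPKM, and CFAP70 and CFAP77 have both JG231 points to the left of DMSO.

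Among the assembly factors, DNAAF2 was higher with JG231. DNAAF2 (ENSG00000165506, chr14:49625174-49635244, GRCh38) encodes kintoun, which assembles dynein arms with the chaperones. It measured 11.5 FPKM in DMSO, 20.3 FPKM at 2.5 μM and 26.2 FPKM at 5 μM, from 549, 1233 and 1879 fragments. The change was 0.82 at 2.5 μM (interval 0.50 to 1.15) and 1.19 at 5 μM (interval 0.81 to 1.57), with a spread of 0.27, and the 2 doses differed by 0.37 (interval 0.05 to 0.67). After rescaling the libraries to a common sum it was 0.53 and 0.81. The other 2 expressed assembly factors did not show such a change. DNAAF5 measured 4.19, 3.47 and 5.002 FPKM, a change of -0.26 and then 0.25 that lay within its spread of 0.53. After rescaling it was -0.55, just past the spread, and then -0.12. DNAAF3 measured 1.05, 0.95 and 1.76 FPKM, and its change of 0.69 at 5 μM lay within a spread of 1.12 and had an interval of -0.73 to 2.12. DNAAF3 shares 27.2% of its exon bases with a non-coding RNA on the opposite strand, which is listed at 0.

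Of the radial spoke genes, RSPH9 was higher and RSPH3 lower with JG231. RSPH9 (ENSG00000172426, chr6:43645036-43672600), a protein of the spoke head, measured 0.24 FPKM in DMSO, 1.14 FPKM at 2.5 μM and 1.80 FPKM at 5 μM, from 10, 61 and 114 fragments. The change was 1.88 (interval 0.14 to 5.42) and 2.499 (interval 0.68 to 6.28) with a spread of 1.13, so that the direction rests on few fragments in the DMSO library and the size is poorly fixed. With 1 added to each FPKM in place of 0.1 the change was 0.79 and 1.18. RSPH9 reached the mean of 1 only through the JG231 libraries, so its place among the higher expressed members follows in part from that limit. On the opposite strand MRPS18A overlaps 26.7% of the exon bases of RSPH9, and it measured 12.1, 24.2 and 23.4 FPKM. No source says if strand was used in counting, and the part of MRPS18A in the RSPH9 values was not tested. RSPH3, a protein of the spoke stalk, measured 4.59, 3.18 and 3.36 FPKM, a change of -0.52 (interval -0.95 to -0.12) and -0.44 (interval -1.07 to 0.10) with a spread of 0.50. With the length trend removed it was -0.34 and -0.08, and after rescaling it was -0.80 and -0.81. RSPH1, of the spoke head, measured 1.87, 0.94 and 1.45 FPKM. Its change of -0.93 at 2.5 μM was just past its spread of 0.89, but its interval, -2.07 to 0.17, included 0, as that at 5 μM did.

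Of the 9 expressed CFAP genes, CFAP20 and CFAP298 had the largest positive changes at 5 μM. CFAP20 (ENSG00000070761, chr16:58113592-58129381), a protein of the junction between the tubules of a doublet, measured 13.3, 20.9 and 29.9 FPKM in DMSO, 2.5 μM and 5 μM, which makes it the highest member at both doses of JG231. Its change was 0.65 (interval 0.31 to 1.01) and 1.17 (interval 0.76 to 1.58), with a spread of 0.26, and the doses differed by 0.52 (interval 0.18 to 0.85). Rescaled, the change was 0.36 and 0.79, and with the length trend removed it was 0.35 and 0.79. CFAP298 (ENSG00000159079, chr21:32592079-32612603), which is needed for dynein arm assembly, measured 2.54, 3.57 and 6.22 FPKM. Its change of 0.48 at 2.5 μM had an interval of -0.03 to 1.04, while that of 1.26 at 5 μM had an interval of 0.70 to 1.91; rescaled, the former was 0.19. A read-through gene that shares 25.0% of the exon bases of CFAP298 on the same strand is listed at 0.

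CFAP70 and CFAP77 were lower with JG231 at both doses. CFAP70 (ENSG00000156042, chr10:73253762-73358864), a protein of the outer dynein arm region, measured 4.05 FPKM in DMSO and 0.91 and 0.90 FPKM at 2.5 and 5 μM, from 499, 142 and 165 fragments. The change was -2.04 (interval -2.73 to -1.57) and -2.06 (interval -3.23 to -1.28), with a spread of 0.74. CFAP77 (ENSG00000188523, chr9:132410043-132573319) measured 4.78, 1.67 and 1.80 FPKM, a change of -1.46 (interval -2.45 to -0.67) and -1.36 (interval -3.00 to -0.18). In both genes the 2 JG231 libraries lay close together and the DMSO library stood apart from them. CFAP70 was under 1 FPKM in both JG231 libraries and reached the mean of 1 only through DMSO, so its place among the lower expressed members follows in part from that limit.

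The remaining 5 expressed CFAP genes had smaller changes than CFAP20 and CFAP298 at 5 μM, but not all did at 2.5 μM. CFAP97 measured 3.50, 4.69 and 5.33 FPKM, a change of 0.41 (interval 0.03 to 0.82) and 0.59 (interval 0.12 to 1.11) with a spread of 0.43, which was 0.13 and 0.22 after rescaling. CFAP36, at 14.3, 19.1 and 15.4 FPKM, had a change of 0.42 at 2.5 μM (interval 0.11 to 0.74) that turned to -0.0196 with the length trend removed, and at 5 μM a change of 0.11 with an interval that included 0. CFAP300, another gene of dynein arm assembly, measured 3.64, 4.17 and 3.61 FPKM, and both changes lay within its spread of 0.50. The same holds for CFAP410, a protein of the cilium base, at 3.02, 2.52 and 2.31 FPKM with a spread of 0.55. Its change at 5 μM was past that spread after rescaling (-0.74) and with the length trend removed (-0.67). On the opposite strand a non-coding RNA covers 46.0% of the exon bases of CFAP410 at 0.84 FPKM or less. CFAP53, a protein inside the doublet microtubules, measured 2.65, 1.46 and 2.85 FPKM. Its change of -0.82 at 2.5 μM was past its spread of 0.67 but had an interval of -2.00 to 0.27, from 78, 54 and 125 fragments, and that at 5 μM was 0.10.

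The 4 expressed motor chains showed no common direction, while the low ones are described further on. DNAL4, a dynein light chain, measured 9.59, 13.1 and 13.0 FPKM, a change of 0.45 (interval 0.05 to 0.87) and 0.43 (interval -0.09 to 0.98) with a spread of 0.29. With the length trend removed its change was 0.15 and 0.05, within the spread. DNAL1, the light chain that binds the outer arm motor, was lower, at 3.34, 2.15 and 1.89 FPKM, a change of -0.61 (interval -1.06 to -0.21) and -0.79 (interval -1.48 to -0.18) with a spread of 0.64. With the length trend removed this was -0.35 and -0.27, within the spread. DNAH5, the outer arm heavy chain, measured 1.32, 2.17 and 1.34 FPKM, from 528, 1101 and 801 fragments. It was higher at 2.5 μM (0.68, interval 0.38 to 1.05), lower at 5 μM than at 2.5 μM (-0.66, interval -1.16 to -0.28) and at 5 μM differed from DMSO by 0.02, all within a spread of 0.84. With the length trend removed, its change was 0.94 at 2.5 μM, past the spread, and 0.54 at 5 μM. DNAH14, another heavy chain, measured 1.28, 1.60 and 1.48 FPKM, with both intervals including 0, and had changes of 0.56 and 0.71 with the length trend removed, within its spread of 0.89.

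**Figure D2:**
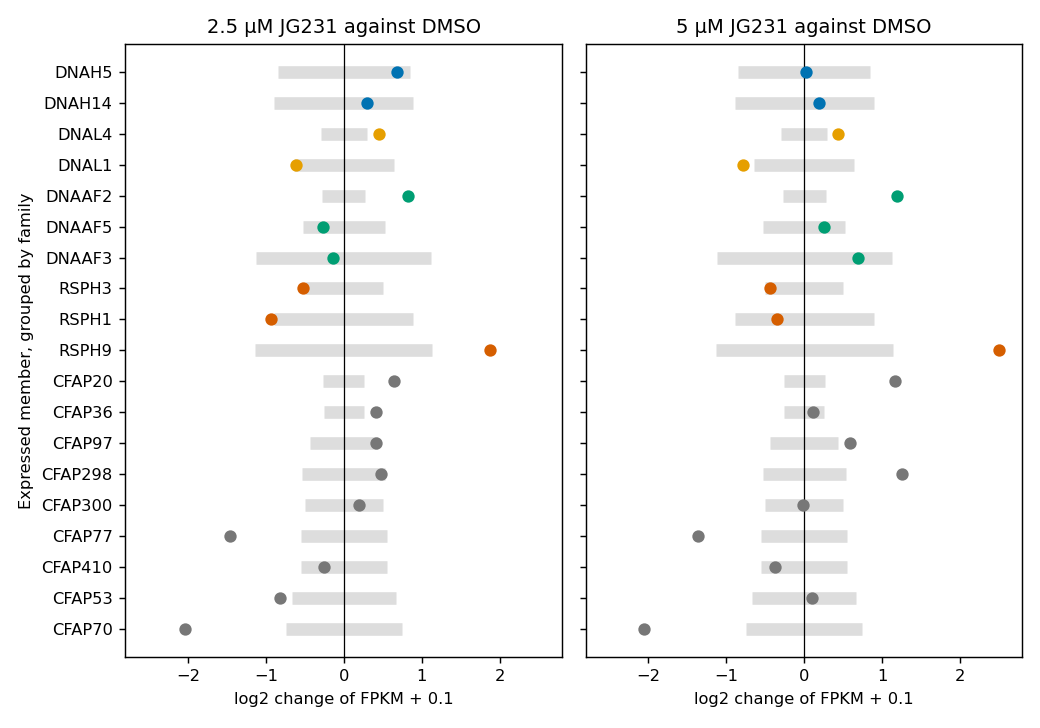
Log2 change of FPKM + 0.1 of each expressed member against DMSO at 2.5 μM (left) and 5 μM JG231 (right), 1 point per gene, coloured by family; grey bars run from minus to plus the spread between the JG231 libraries of genes at a like level. At 5 μM, CFAP20, DNAAF2, DNAL4, CFAP97, CFAP298 and RSPH9 lie to the right of their bars and CFAP77, DNAL1 and CFAP70 to the left.

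Between the doses, 8 of the 19 expressed members were more than 0.25 higher at 5 μM than at 2.5 μM and 2 were lower, against 24.8% and 28.7% of all rows with a mean of at least 1. The 8 include each of the 3 expressed assembly factors, with DNAAF5 at 0.51 (interval 0.04 to 0.98) and DNAAF3 at 0.82 (interval -0.52 to 2.10). The interval lay above 0 for 4 of the 19 (DNAAF2, CFAP20, DNAAF5 and CFAP298, the last by 0.78 with an interval of 0.30 to 1.30) and below 0 for DNAH5, where it lay above 0 in 12% and below 0 in 12.3% of all 13722 such rows with a known exon length.

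More of the 35 low members were listed at 0 in the 5 μM library than in the others: 4 in that of DMSO, 4 in that of 2.5 μM and 12 in that of 5 μM. The shares for all 10351 low rows were 19.7%, 42.4% and 60.4%, and for low protein-coding rows 14.2%, 28.2% and 44.8%. Over all genes, 21862 rows were above 0 in DMSO, 19352 at 2.5 μM and 17293 at 5 μM, while the fragments of the libraries rose in that order. RNA detected in fewer cells, less RNA per cell and a difference between the libraries as made cannot be told apart here. Among the 22 low members with at least 20 fragments on average, 2 were higher and 15 lower by more than 0.25 at 2.5 μM (21.4% and 63.3% of the 2528 rows of that kind), and 4 were higher and 17 lower at 5 μM (24.5% and 62.4%). Past a change of 1, there were 1 higher and 8 lower at 2.5 μM (8.19% and 37.3%) and 1 higher and 10 lower at 5 μM (11.9% and 41.8%). Their median change of -0.75 and -0.90 stood beside -0.65 and -0.70 for the rows of that kind.

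**Figure D3:**
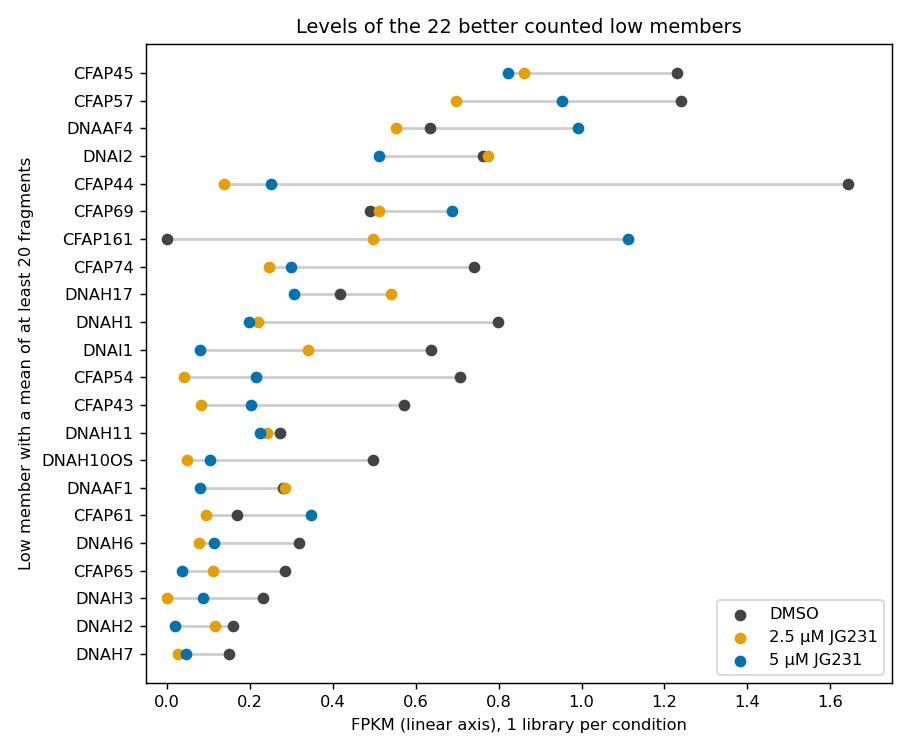
Level in FPKM (linear axis) of the 22 low members with at least 20 fragments on average, in order of their mean, 1 point for each of the DMSO, 2.5 μM and 5 μM libraries. CFAP44, CFAP74, DNAH1, CFAP54 and CFAP43 have the DMSO point far to the right of both JG231 points, and CFAP161 has it at 0.

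Among the 10 low members with the highest means, 5 were lower and 2 higher by more than 0.25 at 2.5 μM, and 7 were lower and 3 higher at 5 μM, which is read against the shares of low rows just given. CFAP44, a protein of the tether that holds inner arm motors, measured 1.64, 0.14 and 0.25 FPKM in DMSO, 2.5 μM and 5 μM, from 321, 34 and 73 fragments, a change of -2.88 (interval -4.69 to -2.48) and -2.32 (interval -4.34 to -1.38). A protein-coding gene on the same strand shares 24.9% of its exon bases and measured 0.38, 0.11 and 0.28 FPKM, so that their reads may be split between them. CFAP74, a central pair protein, measured 0.74, 0.25 and 0.30 FPKM, and its interval lay below 0 at 2.5 μM alone. CFAP45 and CFAP57 measured 1.23 and 1.24 FPKM in DMSO, 0.86 and 0.70 FPKM at 2.5 μM, and 0.82 and 0.95 FPKM at 5 μM, with intervals that included 0. CFAP73 was listed at 0 in the 5 μM library, after 22 fragments in DMSO and 20 at 2.5 μM.

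The other 5 of these 10 members had changes in both directions. CFAP161, a protein inside the doublet microtubules, was listed at 0 in DMSO and measured 0.50 and 1.11 FPKM at 2.5 and 5 μM, from 20 and 52 fragments, and no fold is given against 0. CFAP69 measured 0.49, 0.51 and 0.69 FPKM. The assembly factor DNAAF4 measured 0.64, 0.55 and 0.99 FPKM, and the outer arm genes DNAI2 and DNAH17 measured 0.76, 0.77 and 0.51 FPKM and 0.42, 0.54 and 0.31 FPKM. The intervals of all 5 included 0 at both doses.

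Some low members outside the 10 highest means are named here after their values were seen. Over all low members the interval lay below 0 in 11 and above 0 in 1 (CFAP221) at 2.5 μM, and at 5 μM below 0 in 3, which were CFAP44, CFAP54 and DNAH1, and above 0 in none. Over the 10226 low rows with a known exon length, many of them with too few fragments to be called, the interval lay below 0 in 15.2% and above 0 in 1.9% at 2.5 μM, and in 6.46% and 1.27% at 5 μM. Fragments were divided by 4 at 2.5 μM and by 15 at 5 μM for these intervals, so the counts of the 2 doses cannot be compared. DNAH1, an inner arm heavy chain whose promoter holds the full X-box, measured 0.80, 0.22 and 0.20 FPKM, from 178, 62 and 66 fragments, a change of -1.49 (interval -2.78 to -0.95) and -1.59 (interval -4.12 to -0.69). CFAP54, a central pair protein, measured 0.71, 0.04 and 0.22 FPKM. CFAP43, the partner of CFAP44 in the tether, measured 0.57, 0.08 and 0.20 FPKM, from 66, 12 and 35 fragments. The outer arm intermediate chain DNAI1 measured 0.64, 0.34 and 0.08 FPKM, from 37, 25 and 7 fragments, and RSPH4A, of the spoke head, had 45 and 14 fragments in DMSO and at 2.5 μM and was listed at 0 at 5 μM. DNAH11, an outer arm heavy chain, measured 0.27, 0.24 and 0.22 FPKM, with intervals that included 0 at both doses. Members that went the other way had few fragments too. CFAP61 had 22, 15 and 66 fragments, CFAP299 had 0, 23 and 13, and CFAP221 had 0, 31 and 0.

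DNAH10OS measured 0.50, 0.05 and 0.10 FPKM, from 48, 6 and 15 fragments, and shares 11.1% of the exon bases of DNAH10, itself at 8, 24 and 0 fragments. That stretch is 30% of the exon bases of DNAH10OS, and reads within it cannot be told apart if strand was not used. RSPH10B and RSPH10B2 are near-identical copies whose promoter windows are the same in 300 of 300 bases. They had 3, 0 and 0 fragments and 1, 21 and 0 fragments, and reads may have been split between them, so no fold is given.

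Transcript length went with the change. Among all protein-coding rows with a mean of at least 1, the 1120 with the shortest transcripts (median 944.5 bp) had a median of 0.61 for the change at 5 μM, and the 1120 with the longest (median 9227.5 bp) had -0.52. Over the 41 members with at least 20 fragments on average Spearman's rho between change and length was -0.29 at 2.5 μM and -0.38 at 5 μM, beside -0.26 and -0.37 over the 11200 coding rows. Over the 19 expressed members it was 0.04 and -0.13. These are descriptions across genes, which share their libraries and are not replicates. The 9 protein-coding DNAH members with at least 20 fragments had medians of -0.26 at 2.5 μM and -0.76 at 5 μM for the change, where the 289 coding rows with transcripts of 12000 bp or more had -0.42 and -0.74. The 2 expressed heavy chains lay above these medians, with 0.68 and 0.02 for DNAH5 and 0.30 and 0.19 for DNAH14. The part of length in these values was not tested.

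**Figure D4:**
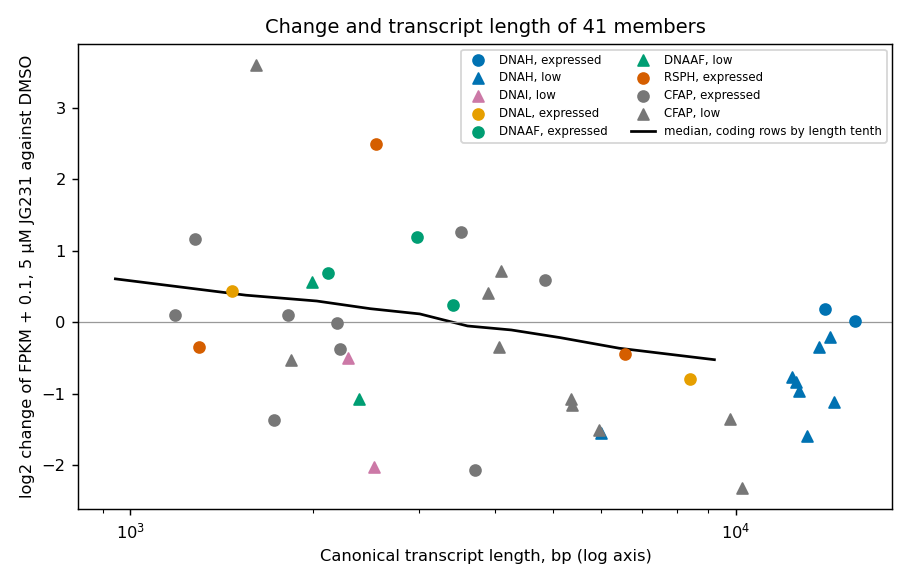
Log2 change of FPKM + 0.1 at 5 μM JG231 against DMSO, by length of the canonical transcript in bp (log axis), for the 41 members with at least 20 fragments on average (circles, expressed; triangles, low; coloured by family); the line joins the median change of protein-coding rows in 10 groups of equal size by length. The DNAH members cluster at the right, mostly below 0, and the triangle at the top is CFAP161, which is listed at 0 in DMSO, so that its height is set by the added 0.1 and is no fold.

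Regulators of the axoneme genes were present in H660 cells. MCIDAS and CCNO, which start the multiciliated programme, measured 9.96, 10.6 and 9.06 FPKM and 32.3, 33.6 and 31.8 FPKM, and both changed by less than their spread of 0.33 and 0.26. FOXJ1, which activates axoneme genes, measured 7.11, 4.40 and 4.74 FPKM (-0.68 and -0.58, spread 0.44). GMNC, which acts at the start of that programme, was listed at 0 in every library. Of the RFX factors, RFX1 was higher at 6.90, 11.6 and 11.5 FPKM, RFX3 measured 2.23, 2.10 and 2.22 FPKM, and RFX2, from 293, 315 and 181 fragments, had a change of -1.18 at 5 μM beside a spread of 0.89. RFX5 measured 19.4, 18.2 and 14.1 FPKM, RFX7 measured 2.81, 6.05 and 3.91 FPKM and RFX4 was under 0.1 FPKM.

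The other listed regulators also went both ways. E2F4 was higher by 0.94 and 1.13 on the log2 scale, reaching 24.1 FPKM at 5 μM, as was E2F5 at 4.65, 10.3 and 6.11 FPKM. TP73 measured 9.26, 11.8 and 10.5 FPKM. MYB, at 9.97, 4.82 and 4.67 FPKM, and FOXN4, at 3.49, 0.62 and 0.87 FPKM, were lower. FOXN4 reached the mean of 1 only through DMSO, so its place among the lower expressed regulators follows in part from that limit. In all, 5 of the 13 expressed regulators were more than 0.25 higher and 3 lower at 2.5 μM, and 4 were higher and 5 lower at 5 μM, to be read against the shares of all rows given above for these thresholds. Of 12 multiciliated cell markers 6 were expressed, among them MCIDAS, CCNO and FOXJ1, which are counted among the regulators too. At each dose 1 was higher and 3 lower, beside 38.4% and 38.3% of all rows at 2.5 μM and 38.6% and 40.2% at 5 μM. SNTN, TEKT1 and TEKT4 were listed at 0 in every library, as GMNC was, and TPPP3, the 1 counted as higher, measured 0.85, 3.34 and 4.86 FPKM and reached the mean of 1 only through the JG231 libraries. CAPS was lower at 3.57, 1.80 and 0.93 FPKM, and TEKT2 was lower by 0.97 and 0.56 on the log2 scale from 3.74 FPKM.

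The counts of further lists are over their expressed genes, and the shares of all rows higher or lower by more than 0.25 were 38.4% and 38.3% at 2.5 μM and 38.6% and 40.2% at 5 μM. Low genes of these lists are left out. The docking complex and its ruler had 3 expressed of 9 genes, all 3 lower at 2.5 μM and 1 (CCDC40, at 4.47, 2.46 and 2.90 FPKM) lower at 5 μM. The nexin-dynein regulatory complex had 3 of 10, with 3 lower and then 2 lower, among them IQCG at 3.83, 1.02 and 1.56 FPKM. In the central pair 4 of 7 were expressed, with none higher and 2 lower at 2.5 μM and 2 higher and 1 lower at 5 μM; SPAG6 measured 1.92, 0.90 and 3.07 FPKM. NME5, the expressed 1 of 5 radial spoke partners, measured 6.91, 2.03 and 0.94 FPKM (-1.72 and -2.76, spread 0.53).

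Assembly factors under other names were split, with 4 higher and 5 lower of 9 expressed at 2.5 μM and 3 and 4 at 5 μM. Both splits stand beside 38.4% higher and 38.3% lower rows at 2.5 μM and 38.6% and 40.2% at 5 μM. PIH1D1, a chaperone cofactor, was higher at 9.80, 16.3 and 19.5 FPKM, and ZMYND10 was lower at 2.34, 1.30 and 1.18 FPKM. The cytoplasmic dynein chains were at a higher level, with 13 of 15 expressed. The list holds chains of the transport motor along cell microtubules and of the one inside cilia (WDR34, WDR60, DYNC2LI1 and DYNC2H1). DYNC2H1 was low, with a mean of 0.29 FPKM. Of the 13 expressed chains 4 were higher and 4 lower at 2.5 μM, and 4 were higher and 3 lower at 5 μM, against the same shares. DYNLRB1, a short light chain gene, measured 66.8, 118.4 and 150.9 FPKM, and DYNC1H1, the heavy chain with a transcript of 19940 bp, measured 11.9, 5.79 and 5.16 FPKM.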

How the data were processed

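RNA-seq of H660 cells (1 library per condition) was analysed. The authors deposited gene-level FPKM in a table with a column per library. The paper's methods name HISAT and StringTie, the submitters' processing notes HISAT2, featureCounts and GRCh38; versions and annotation release are not given in the sources used here. The libraries are described as stranded; use of strand in counting is not stated. All 64 members matched GENCODE release 44 (GRCh38) by identifier. Changes were log2((FPKM + 0.1)/(FPKM + 0.1)). The added value and the 0.25 threshold follow the paper's methods. Fragments were FPKM multiplied by exon length and divided by the value of 1 fragment; of member values under 100 fragments, 20 of 29, 26 of 35 and 16 of 21 came out whole within 0.1 (DMSO, 2.5 μM, 5 μM). No count model was fitted, since FPKM are not counts. Named genes were all expressed members, the 10 low members with the highest means, those around the mean of 1, copies and non-coding rows, up to 4 expressed genes of each other list by change at 5 μM, and all listed regulators; some that the rule selects are not named. Members, lists and this rule were chosen with earlier results of these data known. The code was tested on simulated data. Alternatives were other added values, filters, thresholds, scalings, removal of the length trend and other symbols. The tools were matplotlib 3.10.9, scipy 1.17.1, pandas 2.3.3 and numpy 2.4.6 in Python 3.11.15.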

Additional observations from a re-analysis of the deposited data

How the results depend on the processing

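A count was taken as kept within 1.5 times the value reported, and a change if it moved by less than the spread (0.55 for the median, the gene's own for a gene) and a change over 0.25 kept its sign; values inside these wide limits can still differ several-fold. By this measure 62 values over all members were kept and 23 moved, and of the single gene values 175 were kept, 13 moved and 2 reversed. Some could not move: all 19 expressed members are protein-coding, none had 3 fragments or fewer, and centring at 2.5 μM subtracted 0. A median that went from 0.19 to -0.26 at 2.5 μM also counts as kept. The totals therefore overstate how far the results held. With a mean of at least 5 FPKM 4 members were left, of which 4 were higher and 0 lower at 2.5 μM and 3 higher and 0 lower at 5 μM (median 0.80), beside 48.0% and 26.1% of such rows at 2.5 μM and 48.8% and 27.4% at 5 μM. With no filter on level (54 members), 16 were higher and 31 lower at 2.5 μM (median -0.41) and 13 higher and 32 lower at 5 μM (median -0.41), beside 32.6% and 48.4%, and 29.6% and 50.5%. Rescaling each library to a common sum that leaves out mitochondrial genes and small RNAs moved the median of all rows by -0.28 at 2.5 μM and -0.37 at 5 μM, and then 4 members were higher and 9 lower at 2.5 μM and 5 higher and 10 lower at 5 μM, beside 26.1% and 51.1%, and 24.5% and 55.4%. Of the genes that the symbol rule leaves out, 7 expressed ones were then added (26 members). They are DNALI1, whose prefix has no digit after it, and genes listed under other symbols. Of the 26 members 10 were higher and 14 lower at 2.5 μM and 9 and 11 at 5 μM, beside 38.4% and 38.3%, and 38.6% and 40.2%. At a threshold of 1, 1 was higher and 2 lower at 2.5 μM and 4 higher and 2 lower at 5 μM. With a mean of at least 20 fragments, chosen after seeing the data (41 members), 11 were higher and 23 lower at 2.5 μM (median -0.26) and 12 and 23 at 5 μM (median -0.35), beside 36.2% and 41.2%, and 36.8% and 42.7%. With an FPKM over 1 in either library the median at 2.5 μM was -0.19. Counted as under 0.1 FPKM in place of listed at 0, 7 low members were so in DMSO, 14 at 2.5 μM and 18 at 5 μM, beside 30.4%, 53.5% and 65.4% of all low rows. The change of CFAP36 at 2.5 μM was -0.0196 with the length trend removed, and that of DNAAF5 at 5 μM was -0.12 after rescaling. At 5 μM CFAP36 had -0.27 after rescaling and -0.50 with the length trend removed, and DNAL4 had 0.06 and 0.05. The cause of these shifts was not tested. No paired analysis was possible because each condition has 1 library, and no library could be left out for the same reason. Fragment numbers limit the low members most, since they are few and pile up. The 5 μM library, with the most fragments, had the fewest rows above 0.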
